A study of Mus musculus with 55 samples.

Results

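H19, Igf2, Meg3 and Peg3 are imprinted genes, and they were followed here by name through the RNA-seq tables and by position through the peak lists of mouse livers. The 4 genes are 4 of the 3900 genes that the table of TCPOBOP-treated Setd8-LKO livers lists against untreated WT livers, and only Peg3 is also among the 719 genes of the table of TCPOBOP-treated WT livers. Both tables hold only genes that the authors had selected for a difference, so being listed is not a finding.

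Setd8-LKO mice (Setd8 lox/lox AlbCre) lack the floxed exon 7 of Setd8, the H4K20 monomethyltransferase, in cells that express Cre from the albumin promoter, chiefly hepatocytes. They received TCPOBOP, an agonist of the nuclear receptor CAR that drives hepatocyte proliferation, at 3 mg/kg, and were analysed after 24 h at an age of 45 to 50 days (n = 4). The controls were WT mice labelled untreated (n = 5) and WT mice given the same TCPOBOP treatment (n = 5). Genotype and treatment both differ between Setd8-LKO + TCPOBOP and untreated WT and cannot be told apart in that comparison. RNA came from whole liver, so fewer cells of a type and less RNA per cell cannot be told apart either. CTCF (4 WT and 2 Setd8-LKO + TCPOBOP samples), Smc3 (3 and 2), H3K27ac (3 and 3) and ATAC-seq (3 and 5) gave 1 peak list per condition. Whether these came from the livers used for RNA is not given in the sources used here.

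The listed genes held 11238950 to 12780869 raw counts per untreated WT library, 5734065 to 8231255 per Setd8-LKO library and, in the other table, 2609310 to 3706582 per TCPOBOP-treated WT library, which are sums over listed genes and not depths. The Kmt5a gene, which encodes Setd8, had 563 to 761 normalized counts in untreated WT and 1313 to 1465 in the libraries labelled Setd8-LKO (log2 fold change 1.08 ± 0.139 SE, edgeR adjusted p = 0.000452). The deleted exon is not resolved by gene counts, so this value does not check the label. Alb, the hepatocyte product albumin, had 302416 to 437673 normalized counts in Setd8-LKO + TCPOBOP and 630727 to 1230909 in untreated WT livers.

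Imprinted genes are expressed mainly from the allele of one parent, set by a differentially methylated control region that escapes reprogramming after fertilization. At the H19-Igf2 locus the control region upstream of H19 binds CTCF on the maternal allele, which insulates Igf2 from shared enhancers, while methylation of the paternal allele prevents binding and permits Igf2 expression. H19 is a long noncoding RNA and Igf2 a fetal growth factor, and both are abundant in fetal liver and repressed after birth. Meg3 is a maternally expressed long noncoding RNA of the Dlk1-Dio3 cluster, and Peg3 encodes a paternally expressed zinc finger protein. The data used here do not separate alleles.

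The 4 genes had higher normalized counts in each Setd8-LKO + TCPOBOP library than in any untreated WT library. Counts normalized by the authors' factors are given throughout as normalized counts. H19, Meg3 and Peg3 passed the filter on low counts and rose, which is 3 of 3 members tested. H19 had 6, 1, 16, 5 and 42 raw counts in untreated WT and could pass that filter only with its Setd8-LKO libraries. Being tested therefore favoured a rise for H19. In the same fit 50.5% of the 3723 tested genes were called higher, with an adjusted p under 0.05 and a log2 fold change of at least 1, and in 86.9% the groups did not overlap, so a call by itself does not set these genes apart from the list. In all, 1881 genes were called higher and 1289 lower, but with DESeq2 size factors over the listed genes 765 of 3603 were called higher and 1463 lower. Among themselves the 4 genes differed in the size of the rise and in the spread between livers.

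H19 (ENSMUSG00000000031, mm10 chr7:142575529-142578143, minus strand) had 6, 1, 16, 5 and 47 normalized counts in the untreated WT libraries 1 to 5 and 5052, 4547, 74 and 310 in the Setd8-LKO + TCPOBOP libraries 1 to 4. Libraries 1 and 2 of Setd8-LKO were far above libraries 3 and 4, and the lowest of them was 1.57 times the highest WT library. The means were 15.0 ± 18.7 (SD, n = 5) and 2496 ± 2670 (SD, n = 4). The log2 fold change was 7.35 ± 1.32 (SE, edgeR adjusted p = 0.00454), with an exact two-sided permutation p = 0.0159 on log2(normalized count + 1), the smallest that 4 against 5 libraries allow. This p was the same for each of the 4 genes. The fitted value for H19 was 8.36 without WT library 5, the WT library with the most H19 counts, and 6.74 without Setd8-LKO library 1.

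Igf2 (ENSMUSG00000048583, chr7:142650766-142666816, minus strand) had 4, 5, 9, 5 and 3 normalized counts in untreated WT and 764, 471, 10 and 26 in Setd8-LKO + TCPOBOP. Library 3 was within 1 count of the highest WT library, whereas libraries 1 and 2 stood well above the WT range. Igf2 did not pass the filter on low counts and was not called in the fit. Fitted without the filter, its log2 fold change was 5.84 ± 1.17 (SE, edgeR adjusted p = 0.00930). The edgeR adjusted p was 0.105 when the run named for each library, A or B, was a term of the model. The fitted value was 4.93 without Setd8-LKO library 1. Gm49394, a gene annotated on the same strand at chr7:142650769-142669942, had nearly the same counts (5, 5, 9, 5 and 3, then 764, 472, 10 and 26). Reads of Gm49394 and of Igf2 cannot be told apart in these tables.

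Meg3 (ENSMUSG00000021268, chr12:109541001-109571726, plus strand) had 95, 60, 34, 44 and 41 normalized counts in untreated WT and 1609, 1972, 245 and 755 in Setd8-LKO + TCPOBOP. The order among the Setd8-LKO livers resembled that of H19, with libraries 1 and 2 high and library 3 lowest. The means were 54.8 ± 24.4 (SD, n = 5) and 1145 ± 788 (SD, n = 4), and the log2 fold change was 4.38 ± 0.564 (SE, edgeR adjusted p = 0.000470). An antisense gene, Gm26906, overlaps Meg3, and whether counting used the strand is not given in the sources used here.

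Peg3 (ENSMUSG00000002265, chr7:6703892-6730431, minus strand) had 116, 84, 274, 200 and 294 normalized counts in untreated WT and 1165, 1306, 1581 and 823 in Setd8-LKO + TCPOBOP. Here library 3 was the highest and not the lowest of the 4, and the livers differed by 1.92-fold at most. The means were 194 ± 93.0 (SD, n = 5) and 1219 ± 315 (SD, n = 4), with a log2 fold change of 2.65 ± 0.362 (SE, edgeR adjusted p = 0.000687).

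**Figure D1:**
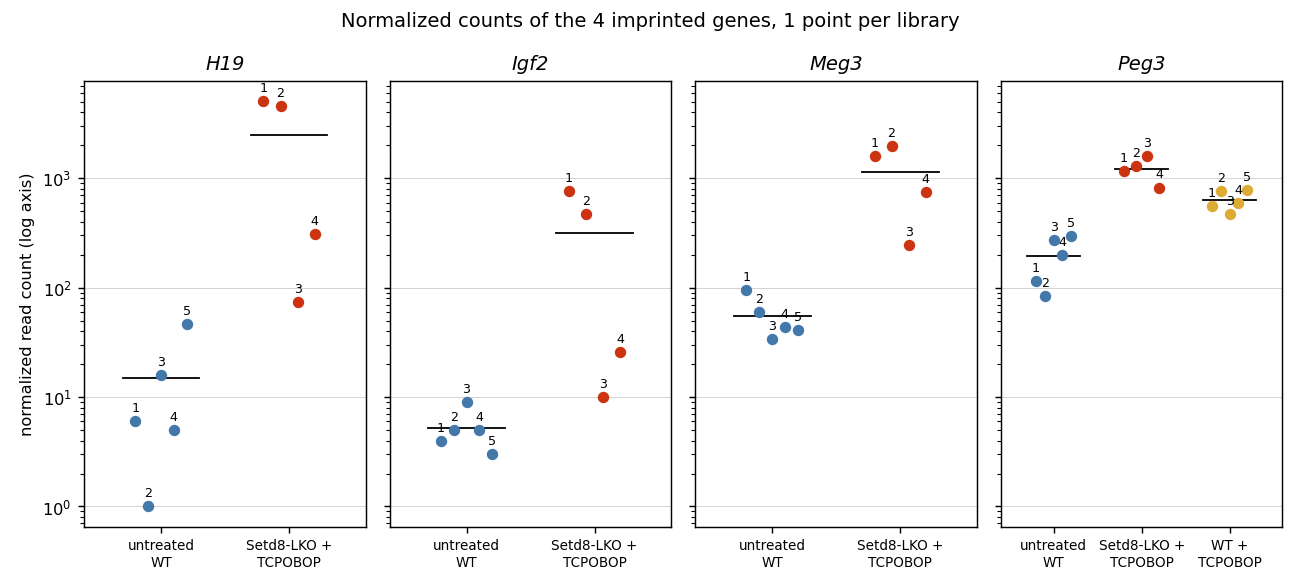
Normalized read counts (log axis) of H19, Igf2, Meg3 and Peg3, with 1 point per library, the replicate number above it and a bar at the group mean. Every Setd8-LKO + TCPOBOP library lies above the WT libraries, with 74 to 5052 counts for H19 but 823 to 1581 for Peg3.

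Peg3 also rose in WT livers after TCPOBOP. It had 552, 761, 474, 588 and 779 normalized counts in the TCPOBOP-treated WT libraries 1 to 5, with a mean of 631 ± 134 (SD, n = 5), and no library overlapped with untreated WT, as in 82% of the genes tested there. The log2 fold change was 1.71 ± 0.339 (SE, edgeR adjusted p = 0.0442), in a table where 51.4% of 679 tested genes were called higher and 16.2% lower. That split turned with the scaling, to 67 higher and 195 lower of 674 with DESeq2 size factors over the listed genes and to 61 and 198 of 673 with TMM. The call was lost in 9 of 10 fits that each left out 1 library, all but the fit without untreated WT library 5 (adjusted p from 0.0393 to 0.136), and scaling by TMM or DESeq2 size factors of the listed genes gave log2 fold changes of 0.45 and 0.53. The exact two-sided permutation p was 0.00794, the smallest that 5 against 5 libraries allow.

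With treatment held the same, Peg3 was 1.93 times higher in Setd8-LKO + TCPOBOP than in WT + TCPOBOP livers. The lowest Setd8-LKO library (823) lay above the highest treated WT library (779). In what share of genes these groups also do not overlap was not computed. The mean difference of log2(normalized count + 1) was 0.94 (exact two-sided permutation p = 0.0159, the smallest possible). The difference was 0.49 within run A, which holds 1 Setd8-LKO library, and 0.98 within run B. The 1.93-fold difference rests on the authors' factors, and no other scaling was tried for it. The authors' factors of the untreated WT libraries were the same in both tables, which allowed this comparison. Both comparisons against untreated WT share those libraries. H19, Igf2 and Meg3 are not listed for WT + TCPOBOP, so their levels in those livers were not analysed here.

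The files' headers name 2 runs, A and B, without saying what a run is, and each run held libraries of every group. The mean difference of log2(normalized count + 1) between Setd8-LKO + TCPOBOP and untreated WT was 4.19 in run A and 8.32 in run B for H19, 2.12 and 4.85 for Igf2, 4.22 and 3.59 for Meg3, and 1.70 and 3.75 for Peg3. Run A holds Setd8-LKO library 4 alone, and run B holds the other 3.

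Per kb of exon, a scale on which genes can be compared, Peg3 was the highest of the 4 in untreated WT with 14.5 normalized counts per kb (range 6.30 to 22.1), followed by H19 with 6.10 (0.407 to 19.1), Meg3 with 3.03 (1.88 to 5.25) and Igf2 with 0.909 (0.524 to 1.57). Only the ranges of Meg3 and Igf2 were separate among these neighbours. In Setd8-LKO + TCPOBOP, H19 had the highest mean level, 1015 normalized counts per kb (30.1 to 2054), then Peg3 with 91.5 (61.8 to 119), Meg3 with 63.3 (13.5 to 109) and Igf2 with 55.5 (1.75 to 133). The ranges of all neighbours in this second order overlapped.

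The spread among the 4 Setd8-LKO livers divided the genes. The highest library exceeded the lowest by 68.3-fold for H19, 76.4-fold for Igf2 and 8.05-fold for Meg3, but by 1.92-fold for Peg3. Over the 9 libraries the Pearson r of log2(normalized count + 1) between H19 and Igf2 was 0.92, and with group means removed it was 0.79. For Peg3 the same values were 0.86 and 0.41 with H19, 0.70 and 0.011 with Igf2, and 0.78 and -0.43 with Meg3. These are descriptions over libraries that share groups and runs.

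By the same measure, the 3 listed genes most like H19 were Col5a2 (r = 1.00), which encodes a fibrillar collagen, Lox (0.99), the collagen crosslinking enzyme, and A4galt (0.99). With group means removed r was 0.99, 0.97 and 0.97. Such genes are the highest of 3738 in a table selected for the group difference, so a high r was to be expected and is a description only. Col5a2 had 535, 530, 151 and 245 normalized counts in Setd8-LKO libraries 1 to 4 and 49 to 137 in untreated WT. The genes most like Meg3 were Scara3 (0.99), Samd5 (0.99) and Spp1 (0.99), the secreted glycoprotein osteopontin, with 0.95, 0.95 and 0.94 once group means were removed. Spp1 had 6634, 5109, 1259 and 3329 normalized counts in Setd8-LKO, again lowest in library 3. Besides the overlapping Gm49394, Cttnbp2 (0.98) and Dpep1 (0.98) were most like Igf2, with 0.96 and 0.98 once group means were removed.

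Peg3 had other neighbours. Cenpf (0.99), a kinetochore protein of dividing cells, Lockd (0.99) and Cep128 (0.99), a centriole protein, were most like it among the 3738 genes with a mean of at least 10 normalized counts. Cenpf had 2, 0, 10, 5 and 19 normalized counts in untreated WT and 213, 166, 223 and 74 in Setd8-LKO + TCPOBOP. With the group means removed, r was 0.97 for Cenpf, 0.95 for Lockd and 0.93 for Cep128.

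Markers of other liver cell types differed between the same livers. Among 10 cholangiocyte and progenitor markers 9 were listed, and 8 rose, where 50.5% of all tested genes did (6 with DESeq2 size factors). Their summed level was 537 to 773 normalized counts in untreated WT, and 9240, 8061, 2139 and 5332 in Setd8-LKO libraries 1 to 4. Epcam, an epithelial adhesion molecule of cholangiocytes, had 297, 291, 63 and 160 normalized counts in these libraries. Of 12 stellate cell and fibroblast markers 8 were listed, of which 7 rose and 1 (Dpt, dermatopontin) fell (5 and 1 with DESeq2 size factors), and their sum was 2430 to 3743 in untreated WT and 16074, 14418, 6674 and 8827 in Setd8-LKO. Of 12 macrophage and leukocyte markers 4 were listed, of which 3 rose (1 with DESeq2 size factors). The sum of the 4 was 33 to 114 in untreated WT and 398, 382, 159 and 224 in Setd8-LKO. None of the listed markers was at 0 in all libraries of a group. Each of these 3 sums was lowest in library 3, as were H19, Igf2 and Meg3, and the part of these cells in the RNA of the 4 genes was not tested.

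The 8 listed of 10 hepatocyte markers summed to 1270760 to 2048962 in untreated WT and to 677927, 672057, 802820 and 915836 in Setd8-LKO libraries 1 to 4, where they were lowest in libraries 1 and 2. Of these 8 genes 6 fell and 1 rose, beside 34.6% and 50.5% of all tested genes, the latter being Cyp3a11, a cytochrome P450 known to respond to CAR agonists. With DESeq2 size factors 7 fell and none rose. The other lists were short: Vwf was the 1 listed endothelial marker of 10, and rose (not called with DESeq2 size factors), and Alas2 the 1 listed erythroid marker of 9, and fell.

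**Figure D2:**
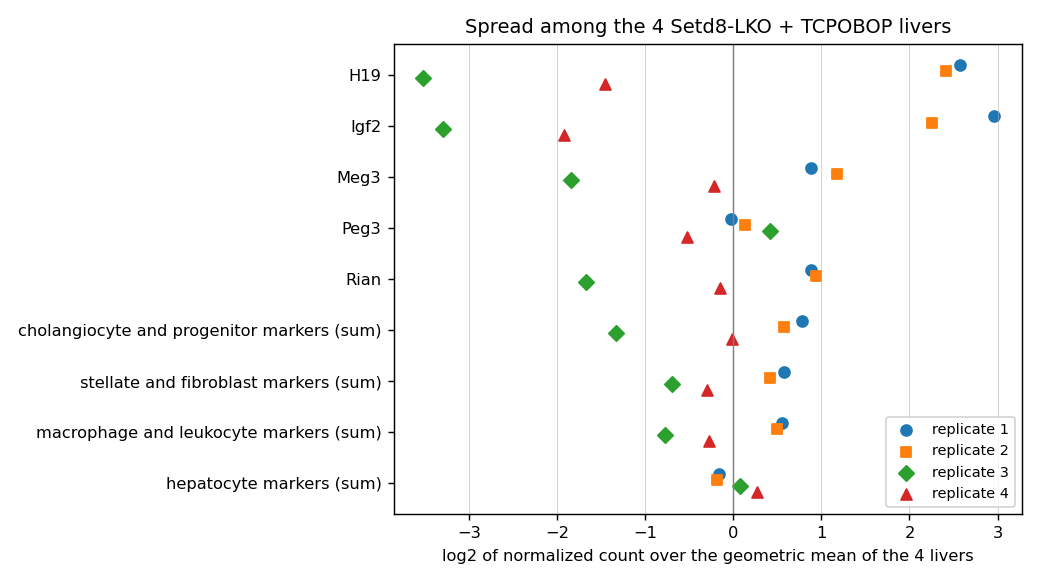
For each of the 4 Setd8-LKO + TCPOBOP livers, the log2 of the normalized count over the geometric mean of the 4, for the imprinted genes, for Rian and for summed cell type markers. Replicates 1 and 2 are high and replicate 3 is lowest for H19, Igf2, Meg3, Rian and the summed cholangiocyte, stellate and leukocyte markers, whereas Peg3 ranges from 823 to 1581 counts only and is highest in replicate 3.

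Neighbouring genes of the imprinted clusters were listed in small number. Rian, a noncoding RNA of the same maternally expressed cluster as Meg3 (chr12:109603808-109661716), was the 1 listed gene within 100 kb of Meg3. It had 38, 21, 27, 22 and 18 normalized counts in untreated WT and 734, 760, 125 and 358 in Setd8-LKO + TCPOBOP (log2 fold change 4.29 ± 0.498 SE, edgeR adjusted p = 0.000242). The order of the Setd8-LKO livers was close to that of Meg3. Within 100 kb of H19, Lsp1, a leukocyte-specific actin-binding protein, was listed besides Igf2 and Gm49394, with a log2 fold change of 1.46 ± 0.321 (SE, edgeR adjusted p = 0.0171). Lsp1 had 21 to 53 normalized counts in untreated WT and 54 to 138 in Setd8-LKO + TCPOBOP, so the groups nearly touch. No other gene within 100 kb of Peg3 was listed.

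Of 82 imprinted genes 14 were listed and 12 tested, of which 9 rose and 1 fell (50.5% and 34.6% of all tested genes), with a median log2 fold change of 2.39 beside 1.16 over all tested genes. The list was drawn up with results of these data known and holds the 4 genes themselves. Atp10a (log2 fold change 3.49 ± 0.499 SE), Airn (2.66 ± 0.182 SE), Asb4 (2.13 ± 0.434 SE) and Ndn (1.79 ± 0.342 SE) rose. In untreated WT Atp10a had 3 to 16 normalized counts, Asb4 1 to 8 and Ndn 3 to 8. Atp10a, Asb4, Ndn and H19 could pass the filter on low counts only with their Setd8-LKO libraries, which favoured a rise. Dcn, which encodes the matrix proteoglycan decorin and is also a fibroblast marker here, rose by 1.20. Dhcr7, the last enzyme of cholesterol synthesis, fell by 1.24. Grb10, an adaptor that binds the insulin and IGF1 receptors, had a log2 fold change of 1.07 ± 0.346 (edgeR adjusted p = 0.169), and Peg10 one of -1.30 ± 0.734 (adjusted p = 1.00). Wt1 and Igf2 did not pass the filter.

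Scaling by DESeq2 size factors over the listed genes shifted the log2 fold changes by a median of -0.82, and TMM over the same genes by -0.013. The cause of the difference was not tested. With DESeq2 size factors the calls of Rian, Atp10a, Airn and Dhcr7 stood and that of Dcn was lost (0.35), whereas Asb4 and Ndn no longer passed the filter. For WT + TCPOBOP, 3 of the 82 genes were listed. Of these Peg3 and Cobl were called higher with the authors' factors, and Ddc had a log2 fold change of -1.11 ± 0.418 (edgeR adjusted p = 1.00). With TMM and DESeq2 size factors Cobl was at -0.08 and 0.0093 and Ddc at -2.35 and -2.28, none of them called.

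**Figure D3:**
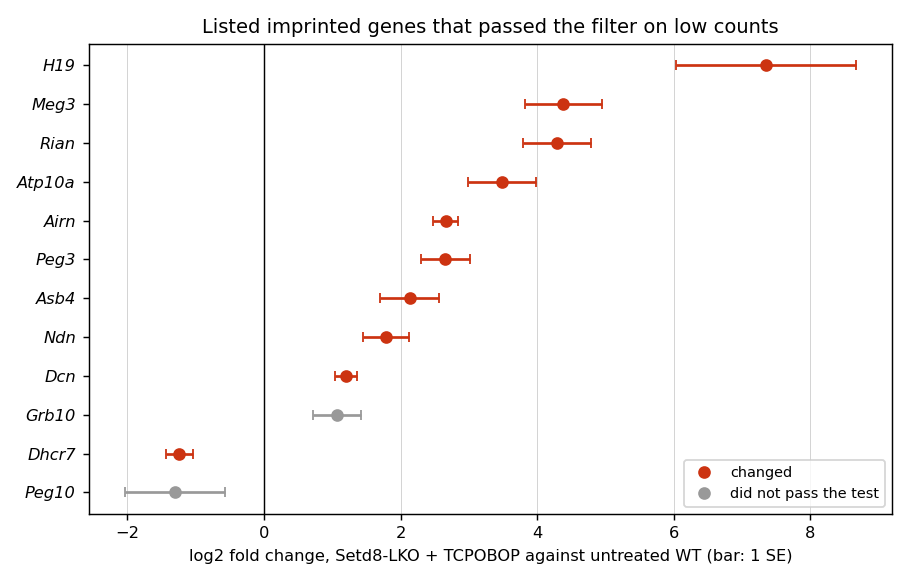
Log2 fold changes of the 12 listed imprinted genes that passed the filter on low counts, Setd8-LKO + TCPOBOP (n = 4) against untreated WT (n = 5), with bars of 1 SE. The values run from -1.30 for Peg10 to 7.35 for H19, and grey points did not pass the test.

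Igf2 belongs to the insulin-like growth factor axis, of which 7 of 25 genes were listed. Of 6 tested, 1 rose and 3 fell, beside 50.5% and 34.6% of all tested genes, with a median log2 fold change of 0.028 beside 1.16. The median was -0.82 with DESeq2 size factors and 1.04 over 7 genes with TMM, so it sets no direction for the list. Igf1, the main growth factor secreted by adult liver, had 6388 to 9857 normalized counts in untreated WT and 2648 to 3300 in Setd8-LKO + TCPOBOP, and fell by 1.49 on the log2 scale (SE 0.171, edgeR adjusted p = 0.000229). Igfals, which stabilizes circulating IGF1, fell by 2.77 (SE 0.279), and Insr, the insulin receptor, by 1.01 (SE 0.184). Igf2bp3, a fetal RNA-binding protein that binds Igf2 mRNA, rose with 15 to 46 normalized counts in untreated WT and 142 to 168 in Setd8-LKO, a range much narrower than that of Igf2.

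Among 24 fetal liver genes 9 were listed, and each of the 7 tested rose, with a median log2 fold change of 3.01, H19 being 1 of them. H19, Spink1 (0 to 3 normalized counts in untreated WT) and Akr1c18 (1 to 7) could pass the filter only with their Setd8-LKO libraries. Being tested therefore favoured a rise for these genes. Of all tested genes 50.5% rose, with a median of 1.16, and with DESeq2 size factors 6 of the 7 were called. Spink1 rose by 5.22 (SE 0.667) and Akr1c18 by 4.40 (SE 0.419). Akr1c18, a steroid dehydrogenase, had 63, 56, 59 and 53 normalized counts in the Setd8-LKO libraries 1 to 4, a spread unlike that of H19. The study itself reported a signature of oncofetal genes on these samples, so the rise of fetal genes here is not independent evidence of a fetal pattern.

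Of 25 genes that maintain imprints or DNA methylation 3 were listed, and all 3 rose (50.5% of all tested genes), but 2 of 3 were called with DESeq2 size factors. Uhrf1, which recruits the maintenance methyltransferase to replicated DNA, had a log2 fold change of 3.80 ± 0.474 (SE, edgeR adjusted p = 0.000383), Hells, a chromatin remodeller, one of 2.78 ± 0.328 (adjusted p = 0.000266), and Zfp57, the zinc finger protein that protects methylated imprints, one of 1.71 ± 0.319 (adjusted p = 0.00594). Zfp57 had 6 to 21 normalized counts in untreated WT and 35 to 52 in Setd8-LKO + TCPOBOP. In the table of WT + TCPOBOP 3 of these genes were listed, and 2 of 3 were called higher with the authors' factors, beside 51.4% of all tested genes. Uhrf1 had a log2 fold change of 3.07 (SE 0.462), Setdb1, the H3K9 methyltransferase of the KAP1 complex, one of 1.01 (SE 0.173), and Hells, not called, one of 1.61 (SE 0.363, edgeR adjusted p = 0.100). None of the 3 was called with DESeq2 size factors or TMM, which shifted the log2 fold changes by a median of -1.17 and -1.25, and Setdb1 was then at -0.16 and -0.24.

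The chromatin at the 3 loci was then read from the peak lists. Within 100 kb of the genes the CTCF lists held 1 WT and 18 Setd8-LKO + TCPOBOP peaks, of which 17 were gained, that is, without an overlapping WT peak, while the WT peak was kept (41.9% of the WT list was lost). Over the whole Setd8-LKO list 83.9% of 20905 CTCF peaks were gained against a WT list of 5838, so the share at these loci is near the background. Of the 17 Smc3 peaks of Setd8-LKO 13 were gained (76% of the whole list), and of the 9 WT Smc3 peaks 5 were lost (57.5% of the whole list). Of the 12 H3K27ac peaks of Setd8-LKO 9 were gained, where 25.5% of 27752 peaks of the list were. Of the 12 ATAC peaks 1 was gained (14.4% of the list) and none of the 11 WT peaks was lost (27%). There is 1 list per condition, so no replicate error can be given for any of these counts. How far fold enrichment differed between the lists over all kept peaks was not computed. A higher value at a single peak is therefore not shown to be particular to these loci.

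Upstream of H19, where the imprinting control region lies, both Smc3 peaks of untreated WT were lost. They lay at chr7:142580174-142580391 and chr7:142580620-142580897, with summits at -2172 and -2680 bp from the start of H19, outside annotated genes. Both were weak, with a fold enrichment of 7.17 and 7.37 and a -log10 p of 23.9 and 21.5, at a calling threshold of 13. No other CTCF, Smc3, H3K27ac or ATAC peak of either condition had its summit within 25 kb of the H19 start. The sequences of the Smc3 peaks are shown because each holds a match to the core of the CTCF motif. Capitals mark matches to CCNCNNGGNGGC (the CTCF core) and TGCCGC (the motif of Zfp57) on either strand, in mm10 letters of the plus strand. In the nearer peak a Zfp57 match overlaps the CTCF match, and the capitals run together.
Smc3 peak nearer to H19: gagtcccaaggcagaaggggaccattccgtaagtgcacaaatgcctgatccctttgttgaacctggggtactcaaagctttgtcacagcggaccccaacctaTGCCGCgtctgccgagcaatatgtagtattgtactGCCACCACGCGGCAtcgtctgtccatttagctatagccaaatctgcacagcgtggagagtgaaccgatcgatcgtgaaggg
Smc3 peak farther from H19: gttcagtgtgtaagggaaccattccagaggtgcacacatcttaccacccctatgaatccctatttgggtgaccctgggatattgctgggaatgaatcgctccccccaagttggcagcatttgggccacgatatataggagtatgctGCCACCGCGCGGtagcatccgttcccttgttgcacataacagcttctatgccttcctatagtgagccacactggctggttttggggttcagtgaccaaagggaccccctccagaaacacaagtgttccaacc

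Between H19 and Igf2, an Smc3 peak at chr7:142610589-142610969 (fold enrichment 13.4 in WT) was kept in Setd8-LKO + TCPOBOP (11.3), and a CTCF peak at the same place (24.3) was gained. It lies in an intron of Gm33148. A stretch of 250 bases around the WT summit, chr7:142610612-142610861, is shown since it holds a CTCF core match, marked in capitals.
Smc3 and CTCF peak between H19 and Igf2: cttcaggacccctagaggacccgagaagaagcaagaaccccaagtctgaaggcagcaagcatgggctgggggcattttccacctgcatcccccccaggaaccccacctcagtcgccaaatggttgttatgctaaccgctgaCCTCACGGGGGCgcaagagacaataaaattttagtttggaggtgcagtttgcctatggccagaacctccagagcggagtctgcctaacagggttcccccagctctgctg

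Over Igf2 itself the WT lists held no CTCF, Smc3 or H3K27ac peak. The Setd8-LKO + TCPOBOP lists held 3 CTCF peaks with a fold enrichment of 7.95 to 12.1, 4 Smc3 peaks (7.60 to 29.5) and 2 H3K27ac peaks (10.2 and 10.9) within the gene body. The H3K27ac peaks, a mark of active promoters and enhancers, lay at chr7:142658993-142659705 and chr7:142660635-142660955 and touched annotated exons of Igf2 and its antisense gene Igf2os. The 250 bases around the summit of the latter, chr7:142660641-142660890, are shown as the gained H3K27ac peak with a Zfp57 motif, in capitals.
H3K27ac peak in Igf2: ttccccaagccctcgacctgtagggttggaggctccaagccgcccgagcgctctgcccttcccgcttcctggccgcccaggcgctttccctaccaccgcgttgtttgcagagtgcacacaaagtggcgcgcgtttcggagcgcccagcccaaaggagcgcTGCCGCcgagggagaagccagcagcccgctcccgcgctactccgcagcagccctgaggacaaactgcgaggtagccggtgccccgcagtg

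The strongest peaks of the H19-Igf2 region stood over an exon of Mrpl23, which encodes a mitochondrial ribosomal protein, about 45 kb downstream of the H19 start. There CTCF had a fold enrichment of 12.7 in WT and 60.2 in Setd8-LKO + TCPOBOP, H3K27ac had 35.1 and 52.3, and an Smc3 peak of 83.3 was gained. In the same gene 3 more H3K27ac peaks (6.33 to 10.2) were gained, and a WT Smc3 peak (16.7) with a CTCF core match was lost where a CTCF peak (35.6) was gained. Mrpl23 is not among the listed genes. In Lsp1, 3 CTCF peaks (8.37 to 22.2), 2 Smc3 peaks (14.7 and 40.5) and 1 H3K27ac peak (11.2) were gained. The other kept peaks of this region were the 3 ATAC peaks of WT, 2 of them at 42131 and -52708 bp from the H19 start.

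**Figure D4:**
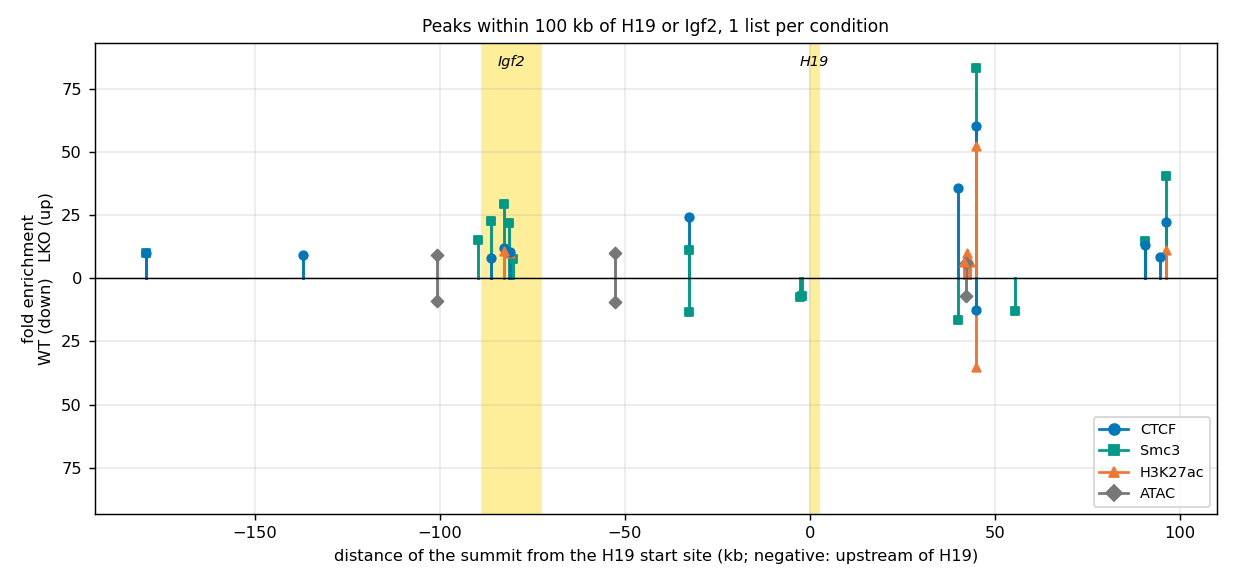
Fold enrichment of each peak within 100 kb of H19 or Igf2, plotted upward for Setd8-LKO + TCPOBOP and downward for untreated WT, against the distance of its summit from the H19 start in kb (shaded: gene bodies). The 2 WT Smc3 peaks just upstream of H19, at 7.17 and 7.37, have no counterpart above the line, and the peaks over Igf2 have none below it.

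In Meg3, 2 Smc3 peaks near the start of the gene were kept and had a higher fold enrichment in the Setd8-LKO + TCPOBOP list. Their fold enrichment was 15.6 in WT and 35.0 in Setd8-LKO at 1155 bp downstream of the start, and 12.2 and 39.9 at 2020 bp. CTCF peaks were gained at both places, with a fold enrichment of 26.3 and 40.6. The CTCF peak with the higher value holds a CTCF core match and is shown over the 250 bases around its summit, chr12:109542892-109543141, within Meg3, with the match in capitals.
CTCF peak in Meg3: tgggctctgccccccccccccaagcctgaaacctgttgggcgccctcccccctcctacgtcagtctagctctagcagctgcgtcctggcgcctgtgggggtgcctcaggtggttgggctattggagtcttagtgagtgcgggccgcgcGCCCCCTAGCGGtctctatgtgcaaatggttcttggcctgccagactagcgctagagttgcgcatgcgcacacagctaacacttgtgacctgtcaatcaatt

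An H3K27ac peak (fold enrichment 6.86) and an ATAC peak (5.13) were gained at -8900 and -7437 bp from the Meg3 start, and the 4 WT ATAC peaks were kept. Farther off, Smc3 (30.1) and H3K27ac (7.47) peaks were gained over Dlk1, the paternally expressed gene of the cluster, which is not among the listed genes. At Rtl1 and Rian, downstream of Meg3, 2 CTCF and 2 Smc3 peaks were gained and no H3K27ac peak was present in either list.

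At the start of Peg3, which it shares with the divergent gene Usp29, both lists held peaks. H3K27ac had a fold enrichment of 7.27 in WT and 19 in Setd8-LKO + TCPOBOP at the start and 6.90 and 7.64 in the intron 1118 bp downstream. A CTCF peak of 40.2 was gained over the start, and an Smc3 peak of 62.6 reached from the start to the kept intronic WT peak (13.5). Farther into the intron a WT Smc3 peak of 6.80 was lost and a CTCF peak of 27.4 was gained, and these 2 peaks overlap. This place is shown because the CTCF peak, chr7:6727402-6727687, holds both a CTCF core match and a match to AANATGGC, the motif of YY1, a zinc finger protein known to bind the Peg3 control region. Capitals mark the CTCF match and, after it, the YY1 match. Both matches lie near the edge of the CTCF peak, outside the window around its summit used for the motif counts below. This CTCF peak is therefore not counted there as holding the CTCF core. Both matches lie inside that window around the summit of the lost WT Smc3 peak.
CTCF peak in the Peg3 intron: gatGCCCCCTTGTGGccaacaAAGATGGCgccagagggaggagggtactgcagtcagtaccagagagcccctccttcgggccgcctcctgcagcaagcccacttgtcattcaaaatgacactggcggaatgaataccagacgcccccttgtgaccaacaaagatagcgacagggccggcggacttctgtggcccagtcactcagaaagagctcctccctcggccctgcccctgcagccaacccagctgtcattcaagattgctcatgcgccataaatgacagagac

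The WT H3K27ac peak at the start, chr7:6730122-6730352, lies over an exon of Peg3 and holds 2 Zfp57 motifs, in capitals.
H3K27ac peak at the Peg3 start: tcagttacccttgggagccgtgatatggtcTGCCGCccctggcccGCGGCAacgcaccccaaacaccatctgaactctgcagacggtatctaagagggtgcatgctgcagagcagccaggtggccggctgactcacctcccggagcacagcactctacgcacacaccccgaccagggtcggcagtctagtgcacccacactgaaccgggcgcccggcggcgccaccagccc

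**Figure D5:**
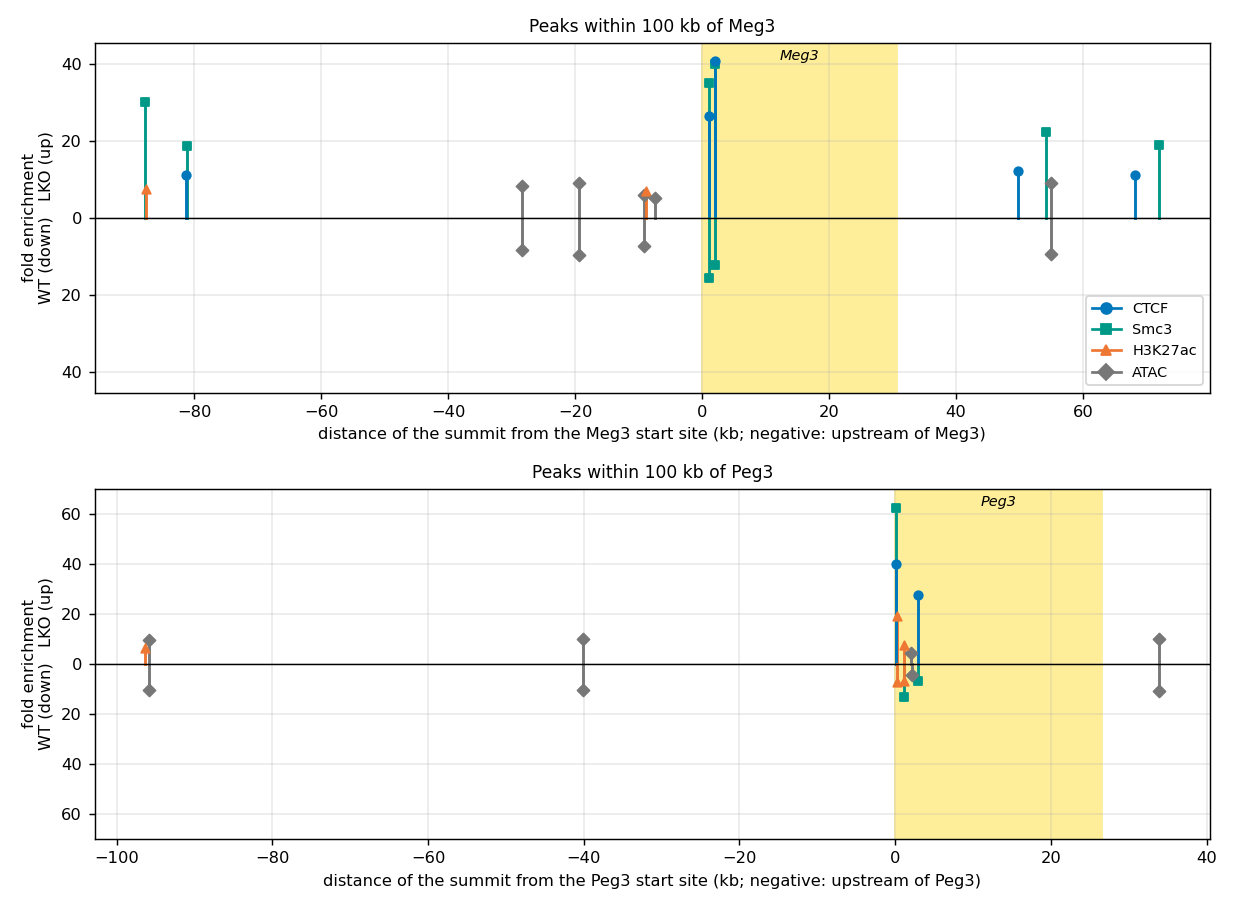
Fold enrichment of each peak within 100 kb of Meg3 (upper panel) and Peg3 (lower panel), upward for Setd8-LKO + TCPOBOP and downward for untreated WT, against the distance of its summit from the start of the gene in kb (shaded: gene bodies). The highest peaks stand near the starts of both genes, with a fold enrichment of 40.6 for CTCF in Meg3 and 62.6 for Smc3 at Peg3.

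Within 100 bp of the summit, the CTCF core was found in 6 of the 9 WT Smc3 peaks at these loci, beside 21.2% of the 13044 WT Smc3 peaks on assembled chromosomes and 2.05% of windows moved by 2000 bp. It was found in 2 of the 18 CTCF peaks of Setd8-LKO + TCPOBOP (12.3% of the whole list) and in 2 of its 17 Smc3 peaks (8.26%). Zfp57 motifs were found at 4 of the 12 H3K27ac peaks of Setd8-LKO, beside 14.4% of the whole list. In the other Setd8-LKO lists they were at 2 of 18 CTCF peaks (18.3% of the whole list), 3 of 17 Smc3 peaks (20.8%) and 2 of 12 ATAC peaks (5.72%). These are matches of letters and not sites shown to be bound. RefSeq promoter windows of GRCm38.p6 (250 bases before to 50 after a start) were matched for Igf2, Meg3 and Peg3. None holds the CTCF core or the YY1 motif, which are in 4.07% and 6.05% of 32851 promoters, and a Zfp57 motif, found in 11.6%, is in 1 of the 4 windows of Igf2 and 1 of the 2 of Meg3.

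Broad domains differed at Peg3. An untreated WT island of Lamin A/C, a mark of chromatin at the nuclear lamina, spanned chr7:6460001-6740000 with Peg3 inside, and no Setd8-LKO + TCPOBOP island lay within 100 kb of the gene. Islands of Lamin A/C covered 850 Mb in the WT list and 758 Mb in the Setd8-LKO list. H4K20me3, a mark of constitutive heterochromatin, formed 1 WT island at chr7:6480001-6740000. In Setd8-LKO + TCPOBOP it formed 2 shorter islands at chr7:6560001-6660000 and chr7:6700001-6740000, the latter over Peg3. Over the whole lists H4K20me3 covered 717 Mb in WT and, in more islands, 632 Mb in Setd8-LKO. What share of all WT islands of either mark was lost or shortened was not computed. The differences at Peg3 are therefore not shown to be particular to this locus. Near Meg3 a single H4K20me3 island, chr12:109520001-109540000, was present in Setd8-LKO and ended upstream of the gene. No island of either mark lay within 100 kb of H19 or Igf2 in either condition.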

How the data were processed

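RNA-seq was analysed for 5 untreated WT, 5 WT + TCPOBOP and 4 Setd8-LKO + TCPOBOP livers. The authors used PRINSEQ to filter reads, HISAT2 to align them to mm10 and metaseqR to count, normalize and test, and deposited tables of selected genes with raw counts and normalized counts (a score, rounded) per library. The selection means that tests describe listed genes only. Another 114 per-sample columns held transformed values and were not used, nor were 32 columns of the authors' p-values and fold changes. Replicates are biological, per the study's methods.

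Raw counts were tested with edgeR 4.0.16 (glmQLFit, glmQLFTest, filterByExpr with a minimum count of 10, the authors' factors as scaling). Benjamini-Hochberg adjustment used the 55450 genes of GENCODE M21 as the family, because the number of genes the authors tested was not used, so adjusted p-values are upper bounds. A gene was called higher (rose) or lower (fell) where the adjusted p was under 0.05 and the log2 fold change was at least 1 in size. A gene with low counts in untreated WT passed the filter only through its treated libraries, so being tested favoured a rise. DESeq2 1.42.0, other scalings, no filter, adjustment over listed genes, run as a term, a replicate block and leaving out each library served as alternatives. Exact tests used scipy on log2(normalized count + 1). The Peg3 comparison of treated livers, the within-run values and the leave-one-out exact tests were added after seeing the data. The fit was also run on simulated data in which all genes had the same spread between libraries. This cannot test it for genes that vary as widely as H19 and Igf2.

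Same-numbered libraries were checked for pairing, and their deviations correlated between -0.149 and 0.0685 in the Setd8-LKO table, so the numbers do not pair them. The members and lists were chosen with earlier results of these data known. Named genes are the members, the 3 listed genes most like each, those within 100 kb, up to 4 called genes per list with the largest change, and Kmt5a; others of the lists were named after their values were seen.

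Chromatin reads were trimmed by the authors with Trimmomatic 0.39 and aligned to mm10, and they called peaks with MACS2 2.2.7.1 or islands with SICER. The deposited peak values are a fold enrichment ratio and a -log10 p, and the deposited island values a score. How replicates were pooled is not given in the sources used here. Reads had been reduced to the smallest ChIP or CUT&Tag sample, which limits weak peaks. Peaks overlapping by at least 1 bp were matched. Coordinates count from 1. Sequences came from GRCm38.p6, the same assembly as mm10, with pysam 0.24.0.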

Additional observations from a re-analysis of the deposited data

Results flagged for a closer look

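Among 23 groups of values tested for a library far from the others, 1 was found, about the number that chance gives (1 in 20). The summed stellate cell and fibroblast markers of untreated WT library 2 (2430 normalized counts) lay apart from the other 4 (3451 to 3743), by 0.778 of the range. H19 was also lowest in that library, at 1 normalized count.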

How the results depend on the processing

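The log2 fold changes against untreated WT stayed positive under every alternative run for the 4 genes. With DESeq2 size factors in Setd8-LKO + TCPOBOP they were 6.36 for H19, 4.85 for Igf2, 3.41 for Meg3 and 1.91 for Peg3. Meg3 and Peg3 kept their calls in Setd8-LKO + TCPOBOP under all of them, H19 under all but the replicate block, and Igf2, fitted without the filter, under all but the replicate block and the run term. Leaving out 1 library gave 6.74 to 8.36 for H19, 4.93 to 6.24 for Igf2, 3.98 to 4.72 for Meg3 and 2.47 to 2.85 for Peg3. Leaving out 1 library gave 10 to 13 changed imprinted genes beside 10, the 13 without Setd8-LKO library 3. With the replicate block H19 was at 7.19 (adjusted p = 0.0639), Igf2 at 4.39 (0.210) and Peg3 in WT + TCPOBOP at 1.82 (0.172), but the labels' numbers do not pair the libraries. With run as a term Igf2 was at 4.80 (0.105). Peg3 in WT + TCPOBOP was at 0.53 with DESeq2 size factors and 0.45 with TMM over the listed genes (both adjusted p = 1.00), and at 1.52 to 1.91 when 1 library was left out. Exact tests without 1 library gave mean differences of 5.67 to 7.70 for H19, 3.14 to 5.18 for Igf2, 3.68 to 4.68 for Meg3, 2.51 to 2.95 for Peg3, and 0.80 to 1.11 for Peg3 against WT + TCPOBOP. Of the peak counts, Smc3 gained was 8 in a window of 50 kb, CTCF lost was 1 in a window of 200 kb and 1 at an overlap of 50%, ATAC gained was 3 in a window of 200 kb and 0 at a -log10 p of at least 20, and the CTCF core was in 1 Smc3 peak of Setd8-LKO within 50 bp of the summit. The cause was not tested. Low WT counts of H19 and Igf2 limit the precision of their fold changes.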
